A study of Arabidopsis thaliana with 12 samples.

Results

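The genes described here make and break down abscisic acid (ABA), the plant hormone of drought and of seed dormancy. They were chosen by locus and are NCED3, NCED5, NCED9, ABA1, ABA2, AAO3, CYP707A1, CYP707A2, CYP707A3 and CYP707A4, which makes 10 of the 21363 genes that had a probe set of their own on the array. Each of the 10 was read by exactly 1 probe set that named no other locus. RNA came from leaves and from roots of Arabidopsis thaliana seedlings, 10 days after germination, and each of 12 samples was read on its own Affymetrix ATH1 array. The 4 groups of 3 arrays were leaves of wild type Col-0 (WT), leaves of the pdx1.3 knockout in Col-0, roots of WT and roots of the knockout, and the series design calls the arrays of a group biological replicates. All plants grew in long days on a diluted Murashige and Skoog medium with sucrose and without vitamin B6. PDX1.3 encodes a subunit of the enzyme complex that makes vitamin B6. Neither the allele, nor the number of lines, nor how many seedlings were pooled per sample is stated, so the loss of PDX1.3 and any other difference between the plant lines cannot be told apart.

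ABA is made from carotenoids. In plastids ABA1, the zeaxanthin epoxidase, makes epoxycarotenoids, and the NCED dioxygenases cut these into xanthoxin, a step long regarded as the one that sets the rate of synthesis. In the cytosol ABA2, a short-chain dehydrogenase, turns xanthoxin into abscisic aldehyde and AAO3, an aldehyde oxidase that carries a molybdenum cofactor, turns the aldehyde into ABA. The cytochrome P450 enzymes of the CYP707A family start the breakdown of ABA by hydroxylating it. In leaves NCED3 is known as the NCED gene that responds to drought, NCED9 is known from seeds, and CYP707A genes are known to be induced by ABA itself.

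The group labels were first set against the signal of the knocked-out gene, because the sample titles and the genotype entry of the sample characteristics named opposite genotypes for all 12 samples, and the titles were used. PDX1.3 gave signals of 591, 942 and 935 in WT leaves and of 40.5, 38.2 and 50.5 in leaves with a knockout title. In roots they were 264, 282 and 282 in WT against 116, 95.8 and 82.1 with a knockout title. All samples with a knockout title lay below all WT samples of the same organ, and where the probe set lies with respect to the mutation is not stated. A signal is the linear intensity of a probe set, on arrays scaled to a common trimmed mean. By the authors' quality values between 64.3 and 72.8% of probe sets were present on an array, and the actin 3'/5' ratio ran from 2.97 to 8.71. Array 1 stood apart among the leaf arrays of both genotypes: across genes, which are not independent replicates, WT leaf array 1 correlated at r = 0.969 and 0.968 with the other WT leaf arrays, which correlated at 0.991 with each other. The pdx1.3 leaf array 1 correlated at 0.980 and 0.978 with its partners, which correlated at 0.992. Among root arrays, pdx1.3 root array 3 correlated at 0.985 and 0.979 with its partners, which correlated at 0.991. In WT roots r was 0.983 to 0.990. WT leaf array 1 gave the lowest WT leaf signal for 6 of the 10 ABA genes and the highest for 2.

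In leaves, 5 of the 10 genes rose in pdx1.3 and none fell, at an adjusted p under 0.05 in limma. These were NCED3 among the synthesis genes of the plastid, ABA2 among those of the cytosol, and CYP707A1, CYP707A2 and CYP707A4 among the breakdown genes. In this comparison 7.22% of all 22746 probe sets tested were called, 4.7% as higher and 2.51% as lower. In the same 5 genes all 3 pdx1.3 leaf arrays lay above all 3 WT leaf arrays, which held for 14.4% of all probe sets, while 24.6% did not overlap in either direction. The median log2 change over the 10 genes was 0.48, beside 0.01 over all probe sets tested. With each array centred on its median, the 1070 higher and 572 lower probe sets became 840 and 841, and 3 of the 10 ABA genes were called. In whole organs, fewer cells of a type and less RNA per cell cannot be told apart. In roots 1 of the 10 genes rose, CYP707A1, and none fell, where 0.809% of all probe sets were called (0.497% as higher and 0.312% as lower) and 11.1% did not overlap.

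**Figure D1:**
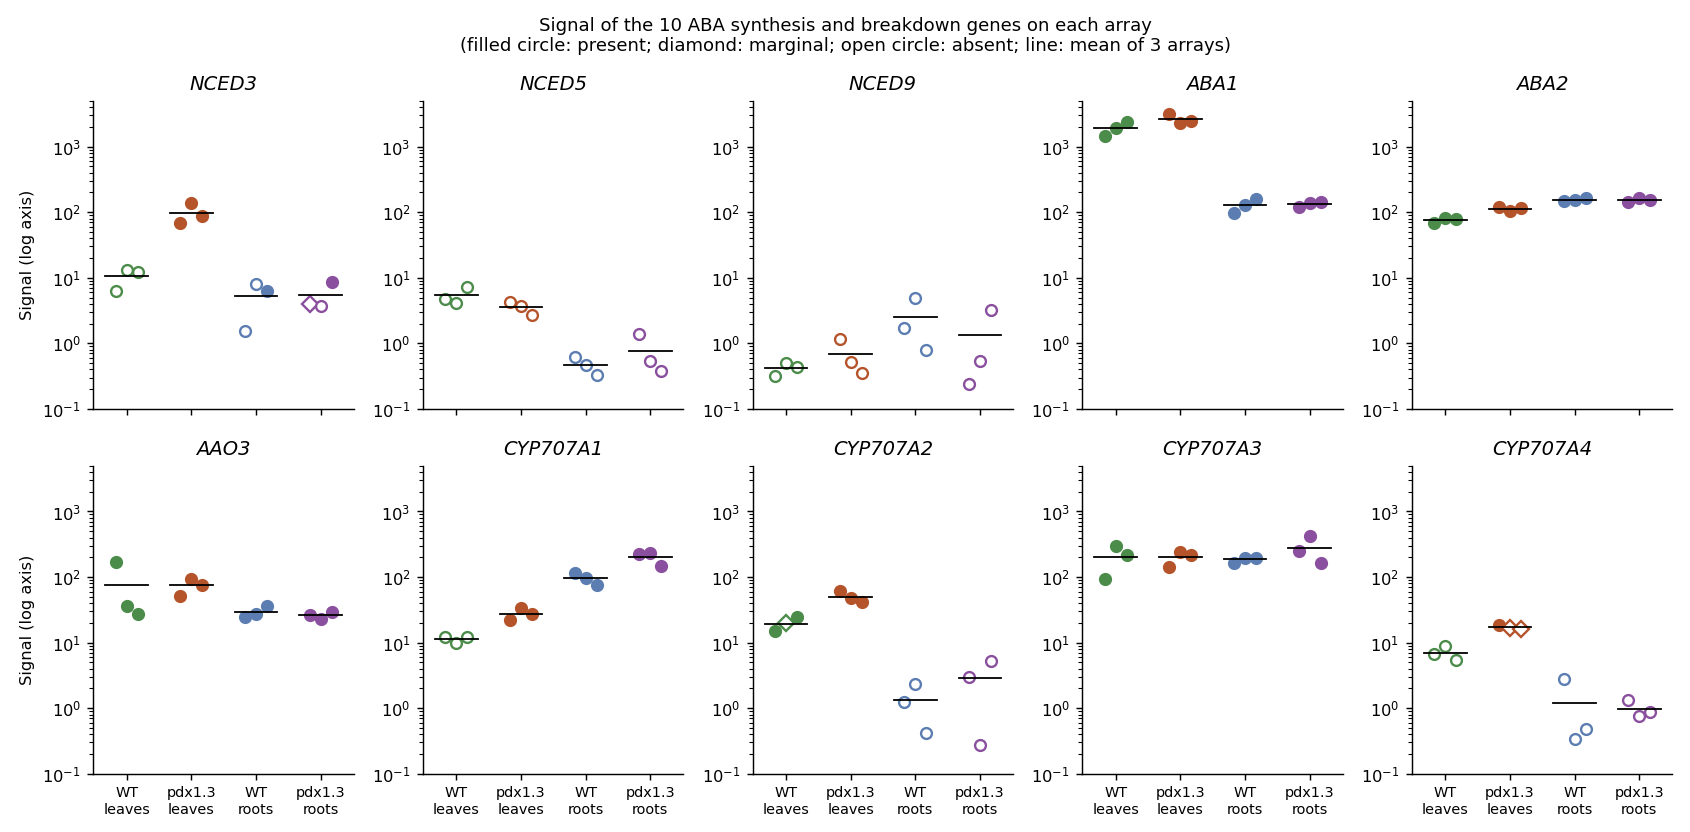
Signal of each of the 10 ABA genes on each of the 12 arrays, on a log axis, with 1 panel a gene and 3 arrays a group; filled circles are present calls, diamonds marginal calls, open circles absent calls, and lines are means. Groups are to be compared within a panel and not between panels; NCED3 lies between 68.3 and 140 in pdx1.3 leaves and at or below 13.0 in all other samples.

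The first step of the pathway within this set is the epoxidation by ABA1. ABA1 (AT5G67030) gave signals of 1450, 1921 and 2354 in WT leaves and of 3117, 2302 and 2458 in pdx1.3 leaves. The lowest pdx1.3 leaf sample lay just under the highest WT leaf sample, so that the groups overlapped. Group means were 1908 ± 452 and 2626 ± 432 (SD, n = 3), and the log2 change of 0.47 (95% interval 0.04 to 0.91, unadjusted p = 0.0348) did not pass the adjustment over all probe sets (adjusted p = 0.193). In roots ABA1 gave 98.2, 129 and 158 in WT and 119, 137 and 142 in pdx1.3, and the pdx1.3 samples lay within the range of the WT samples. The log2 change in roots was 0.06 (95% interval -0.37 to 0.49). ABA1 was called present on all 12 arrays.

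NCED3 (AT3G14440), which cuts the epoxycarotenoids, had the largest leaf change of the 10 genes on the scale of the fit. Its signal was 6.25, 13.0 and 12.3 in WT leaves, all called absent, and 68.3, 140 and 87.5 in pdx1.3 leaves, all called present. Every pdx1.3 leaf sample lay well above every WT leaf sample, whose level is only bounded from above because the probe set was not told from background there. Group means were 10.5 ± 3.72 and 98.7 ± 37.2 (SD, n = 3), and NCED3 was at least 4.21-fold higher in pdx1.3 leaves (log2 change 2.07, SE 0.21, adjusted p = 0.000147). Such a lower bound, like every log2 change here, is on the scale of log2(signal + 16), which understates the change of dim genes. Leaving out any 1 of the 12 arrays kept the leaf call of NCED3, with log2 changes of 1.83 to 2.27. The authors' deposited table, which compares every pdx1.3 array with every WT array, counts an increase for NCED3 in 9 of 9 leaf pairs.

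Roots showed no such change of NCED3. Its root signals were 1.54, 7.97 and 6.24 in WT and 4.03, 3.69 and 8.52 in pdx1.3, with 1 present call in each group. All pdx1.3 root samples but 1 lay within the WT range, and the groups overlapped. The log2 change was 0.02 with a 95% interval of -0.44 to 0.47. The leaf change exceeded the root change by 2.06 on the log2 scale (SE 0.30, adjusted p = 0.00512), and this difference stayed called whichever of the 12 arrays was left out. With a constant of 1 the call was lost (adjusted p = 0.0579). For this difference between leaf and root changes 1.87% of all probe sets were called (1.13% as higher and 0.739% as lower), and among the 10 genes NCED3 and CYP707A4 were.

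Neither of the other NCED genes of this set could be told from background in any group. NCED5 (AT1G30100) was called absent on all 12 arrays, with signals of 2.66 to 7.11 in leaves and of 0.332 to 1.38 in roots. NCED9 (AT1G78390), the NCED gene known from seeds, was also called absent on all 12 arrays, with signals of 0.323 to 1.17 in leaves and of 0.240 to 4.97 in roots. The 4 seed or embryo markers CRA1, OLEO1, AT2S3 and ABI3 had a present call on 0 arrays. No level or fold can be given for NCED5 and NCED9, and neither was called between genotypes in leaves (adjusted p = 0.236 and 0.930) or in roots.

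Both genes of the cytosolic steps were present on all 12 arrays. ABA2 (AT1G52340) gave 68.1, 80.6 and 78.6 in WT leaves and 120, 104 and 116 in pdx1.3 leaves. All pdx1.3 leaf samples were above all WT leaf samples, and the gap between the groups was wider than the range within either. ABA2 rose 1.41-fold (log2 change 0.49, SE 0.11, adjusted p = 0.0188), from 75.8 ± 6.73 to 113 ± 8.31 (SD, n = 3). The call was lost without pdx1.3 leaf array 1 (adjusted p = 0.0546), without pdx1.3 leaf array 3 (adjusted p = 0.0610) and with the arrays of both genotypes numbered 1 left out (adjusted p = 0.0834). It was also lost with centred arrays (adjusted p = 0.0606) and with leaf arrays alone (adjusted p = 0.104).

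In roots ABA2 gave 149, 155 and 165 in WT and 144, 165 and 153 in pdx1.3, and the groups covered nearly the same range. The log2 change was -0.02 with a 95% interval of -0.26 to 0.22. The difference between the leaf and the root change of ABA2, 0.51 on the log2 scale, was not called (adjusted p = 0.141).

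AAO3 (AT2G27150), which makes ABA from its aldehyde, was the member that depended most on 1 array. Its leaf signals were 168, 35.9 and 26.8 in WT and 51.9, 94.6 and 76.5 in pdx1.3. WT leaf array 1 was the highest of all, and the other WT leaf arrays lay below every pdx1.3 leaf array. With all arrays the log2 change in leaves was 0.26 (95% interval -0.64 to 1.15, adjusted p = 0.802). Without WT leaf array 1 it was 0.91 (adjusted p = 0.0211), without both leaf arrays numbered 1 it was 1.10 (adjusted p = 0.00522), and without WT leaf array 3 it was -0.14 (adjusted p = 0.913). In roots AAO3 lay at 24.1, 27.1 and 36.7 in WT and at 26.2, 23.1 and 29.7 in pdx1.3, and the groups overlapped (log2 change -0.09, 95% interval -0.99 to 0.80).

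Among the breakdown genes, CYP707A1 (AT4G19230) was called in both organs. It was called absent in all WT leaf samples, with signals of 12.1, 9.90 and 12.0, and present in all pdx1.3 leaf samples, with 22.2, 33.3 and 27.1. The leaf groups did not overlap, and CYP707A1 was at least 1.59-fold higher in pdx1.3 leaves (means 27.5 ± 5.52 and 11.3 ± 1.23, SD, n = 3), with a log2 change of 0.67 (SE 0.18, adjusted p = 0.0473). That call lay at the threshold: it was kept in 3 of the 12 fits that left out 1 array, and was lost without any 1 of the 6 leaf arrays, without WT root array 2 and without pdx1.3 root array 1 or 2, with a highest adjusted p of 0.154 without pdx1.3 leaf array 2. Over all 25 alternatives it was kept in 9, and the highest adjusted p was 0.242 with a constant of 64.

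In roots CYP707A1 gave 116, 97.8 and 75.1 in WT and 221, 232 and 148 in pdx1.3. Every pdx1.3 root sample was higher than every WT root sample, an order seen for 5.77% of all probe sets. The gene rose 1.92-fold in pdx1.3 roots (log2 change 0.94, SE 0.18, adjusted p = 0.0353), from 96.3 ± 20.6 to 201 ± 45.7 (SD, n = 3). This call was kept in 4 of the 12 fits that left out 1 array. These were the fits without array 1 of WT leaves, of pdx1.3 leaves or of WT roots, or without pdx1.3 root array 3. Among the 12 the adjusted p ran from 0.00641 without pdx1.3 root array 3 to 0.192 without pdx1.3 root array 1. The call was also lost with a constant of 1 (adjusted p = 0.0877), with root arrays alone (adjusted p = 0.156) and with the actin ratio as a covariate (adjusted p = 0.0618). The difference between its leaf and root changes was -0.27 on the log2 scale (95% interval -0.84 to 0.29, adjusted p = 0.746), and it became 0.15 with a constant of 1 in place of 16.

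CYP707A2 (AT2G29090), known for ABA breakdown in seeds, gave 14.8, 19.6 and 24.2 in WT leaves and 60.6, 48.4 and 41.8 in pdx1.3 leaves. The leaf groups were clearly apart, and the WT leaf calls were present on 2 arrays and marginal on 1. It rose 1.87-fold on the scale of the fit (log2 change 0.90, SE 0.14, adjusted p = 0.00215), from a mean signal of 19.5 ± 4.68 to 50.3 ± 9.54 (SD, n = 3), and the call was kept in each of 12 fits without 1 array. With a constant of 1 in place of 16 the adjusted p was 0.148. In roots all 6 calls were absent, with signals between 0.277 and 5.33, so that no root fold can be given. The difference between its leaf and root changes was 0.78 on the log2 scale and was not called (adjusted p = 0.0657). Without pdx1.3 root array 3 that difference had an adjusted p of 0.0477.

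CYP707A4 (AT3G19270) was dim throughout. In WT leaves it gave 6.59, 8.81 and 5.43, all called absent, and in pdx1.3 leaves 18.7, 17.0 and 16.4, with 1 present and 2 marginal calls. All pdx1.3 leaf samples were higher than all WT leaf samples. CYP707A4 was at least 1.46-fold higher in pdx1.3 leaves (means 17.4 ± 1.21 and 6.95 ± 1.71, SD, n = 3), with a log2 change of 0.54 (SE 0.08, adjusted p = 0.00123), and the call was kept in each of 12 fits without 1 array. With a constant of 1 the adjusted p was 0.0772. In roots it was absent on all 6 arrays, with signals between 0.333 and 2.75.

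The leaf change of CYP707A4 exceeded its root change by 0.56 on the log2 scale (SE 0.11, adjusted p = 0.0224). That call was lost without WT root array 2 (adjusted p = 0.0525) and without pdx1.3 root array 1 or 2 (adjusted p = 0.0572 and 0.0658). It was also lost with a constant of 1 (adjusted p = 0.388), with arrays centred on the median (adjusted p = 0.0722) and without both leaf arrays numbered 1 (adjusted p = 0.0509).

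CYP707A3 (AT5G45340), known for ABA breakdown in leaves after rehydration, was present on all 12 arrays and was called in no comparison. Leaf signals were 92.9, 294 and 215 in WT and 143, 239 and 217 in pdx1.3, and root signals were 164, 196 and 195 in WT and 247, 424 and 163 in pdx1.3. Array 1 was the lowest in the leaf groups of both genotypes, and all groups overlapped. The log2 change was 0.09 in leaves (95% interval -0.71 to 0.89) and 0.45 in roots (95% interval -0.34 to 1.25). The leaf interval holds the leaf changes called for CYP707A1 and CYP707A4, and the root interval holds the root change called for CYP707A1.

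**Figure D2:**
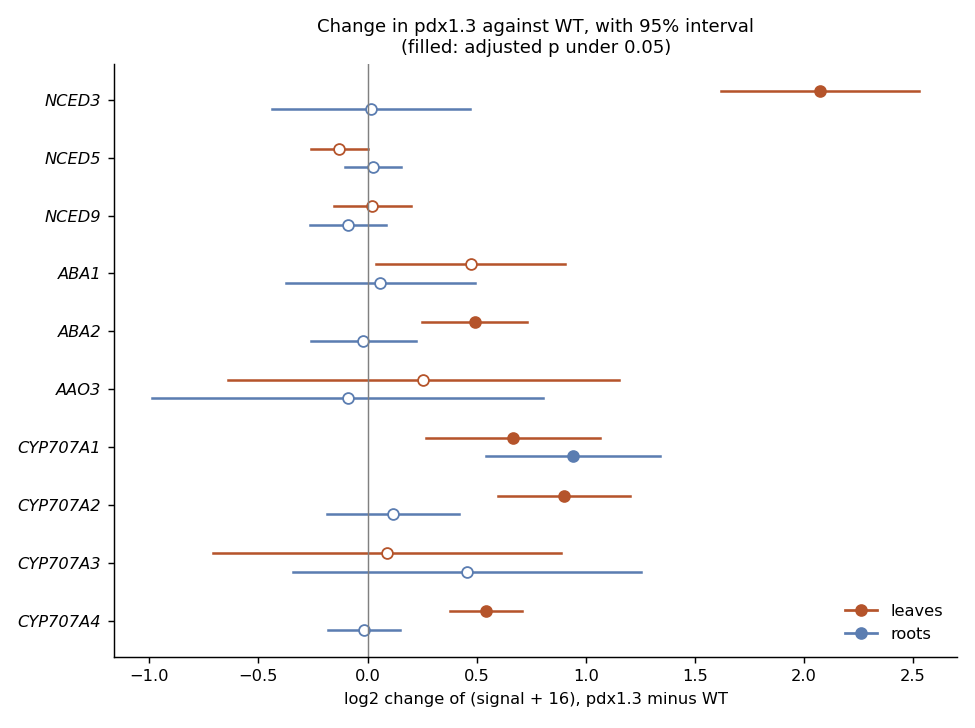
Log2 change of (signal + 16) in pdx1.3 against WT for the 10 ABA genes, in leaves and in roots, with 95% intervals from limma; filled points had an adjusted p under 0.05. In leaves 5 genes were called, all higher, with NCED3 at 2.07, and in roots CYP707A1 was called at 0.94.

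**Figure D3:**
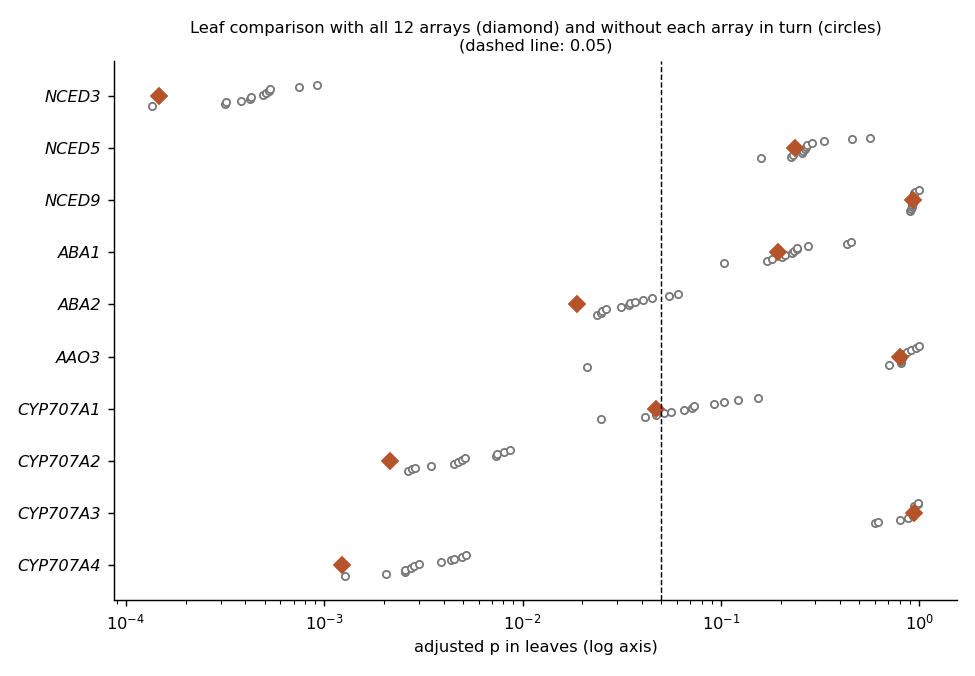
Adjusted p of the leaf comparison for each of the 10 ABA genes, on a log axis, with all 12 arrays (diamonds) and in each of the 12 fits without 1 array (circles); the dashed line marks 0.05. NCED3, CYP707A2 and CYP707A4 stay to the left of the line in all 12 fits, while ABA2 does so in 10 and CYP707A1 in 3.

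Leaves and roots were also compared within each genotype. In WT 6 of the 10 genes were called between leaves and roots, 4 higher and 2 lower in leaves, where 52.5% of all probe sets were called (20.9% as higher and 31.7% as lower in leaves). In pdx1.3 8 of the 10 were called, 6 higher and 2 lower in leaves, beside 54.7% of all probe sets (22.2% as higher and 32.4% as lower). The share called was thus near that of all probe sets in WT. The 6 in WT include NCED5 and CYP707A4, and the 8 in pdx1.3 include NCED5, genes called absent on all arrays of the groups compared. Groups did not overlap in 7 of the 10 genes in WT, beside 59.2% of all probe sets, and in 8 in pdx1.3, beside 60.5%. All leaf arrays lay above all root arrays in 4 of the 10 genes in WT, beside 24.5% of all probe sets, and in 6 in pdx1.3, beside 25.1%. Centring each array on its median moved the median log2 difference of all probe sets between leaves and roots from -0.05 to 0.12 in WT and from -0.04 to 0.08 in pdx1.3. It turned the split from 4750 higher and 7203 lower to 7917 and 5775 in WT, and from 5057 and 7380 to 6724 and 6387 in pdx1.3.

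ABA1 had the largest organ difference of the set, with a leaf signal above the root signal by 3.73 on the log2 scale in WT (SE 0.20, adjusted p = 4.84e-09) and by 4.14 in pdx1.3 (SE 0.20, adjusted p = 1.65e-09). ABA2 went the other way and was lower in leaves, by a log2 difference of -0.91 in WT (adjusted p = 1.36e-05) and of -0.40 in pdx1.3 (adjusted p = 0.00802, or 0.0757 with arrays centred on the median). Its order from high to low was WT roots, pdx1.3 roots, pdx1.3 leaves and WT leaves, and only the root groups overlapped. AAO3 was called higher in leaves than in roots in pdx1.3 (log2 difference 1.07, adjusted p = 0.0433), which held in 4 of the 12 fits that left out 1 array, those without any 1 of the WT leaf arrays or without pdx1.3 leaf array 1. In the other 8 fits its adjusted p reached up to 0.134, and in WT it was not called (adjusted p = 0.166) except without WT leaf array 3 (adjusted p = 0.0378).

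The breakdown genes split by organ. CYP707A1 was lower in leaves than in roots, at least 4.07-fold in WT (means 11.3 and 96.3, adjusted p = 8.27e-07) and 4.92-fold in pdx1.3 (log2 difference -2.30, adjusted p = 2.17e-07). Its order from high to low was pdx1.3 roots, WT roots, pdx1.3 leaves and WT leaves, and no neighbouring groups in that order overlapped. CYP707A2 was higher in leaves, at least 1.98-fold in WT (means 19.5 and 1.34, adjusted p = 3.45e-05) and at least 3.43-fold in pdx1.3 (means 50.3 and 2.88, adjusted p = 1.46e-07). CYP707A4 was at least 1.88-fold higher in leaves than in roots in pdx1.3 (means 17.4 and 0.984, adjusted p = 1.73e-07), with 1 present call. In WT it was also called between organs (log2 difference 0.42, adjusted p = 0.000438), although all its leaf and root samples were called absent and no fold can be given. CYP707A3 had log2 differences of -0.02 in WT and -0.38 in pdx1.3, neither called.

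NCED3 was called between organs in pdx1.3, where the leaf signal was higher by 2.38 on the log2 scale (SE 0.21, adjusted p = 5.52e-07). In WT the difference was 0.32 (adjusted p = 0.223), with absent calls on all leaf arrays. NCED5, like CYP707A4 in WT, was counted among the calls of both genotypes (adjusted p = 0.000140 and 0.00657) although all its samples were called absent, and NCED9 was called in neither. For NCED9 all 3 WT root signals lay above all 3 WT leaf signals, and without WT root array 3 its WT difference had an adjusted p of 0.0402.

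**Figure D4:**
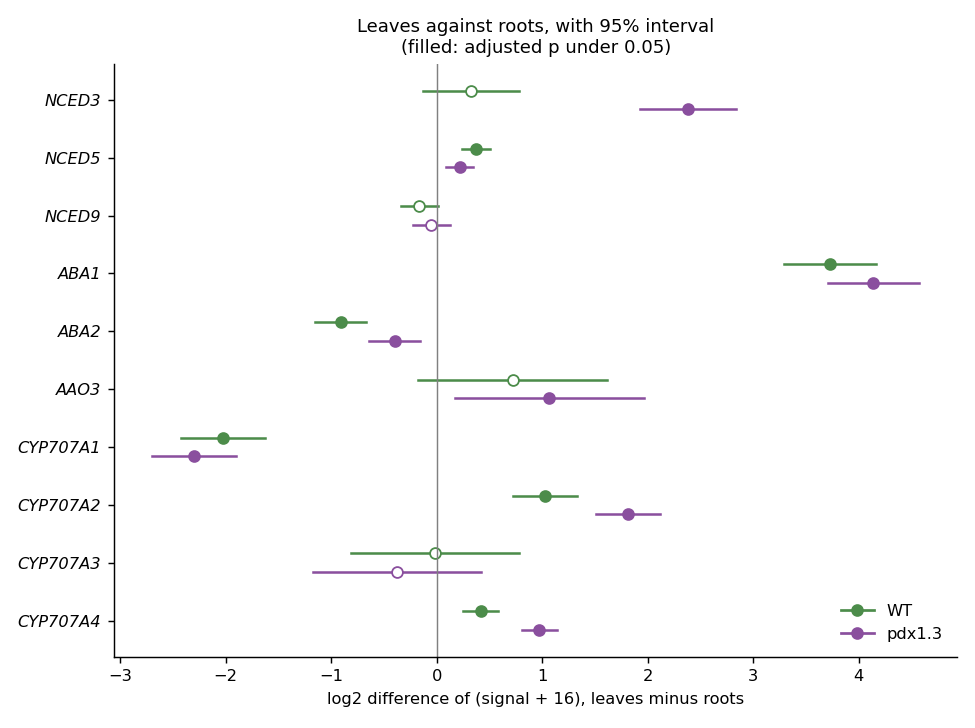
Log2 difference of (signal + 16) between leaves and roots for the 10 ABA genes, in WT and in pdx1.3, with 95% intervals from limma; filled points had an adjusted p under 0.05. ABA1 lies far to the side of leaves at 3.73 and 4.14, CYP707A1 to the side of roots at -2.02 and -2.30, and NCED3 differs from 0 in pdx1.3.

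Markers of cell types were measured beside these changes. In leaves, where 7.22% of all probe sets were called (2.51% as lower), the summed signal of the 5 guard cell markers was 1989 to 2443 in WT and 1032 to 1598 in pdx1.3. Of the 5, 2 fell, MYB60 (log2 change -0.61, adjusted p = 0.00453) and GC1 (log2 change -0.80, adjusted p = 0.0493). GC1 made up most of the guard cell sum, its mean signal falling from 1989 to 1164. Its call was kept in 4 of the 12 fits without 1 array, with an adjusted p of 0.154 without pdx1.3 leaf array 1. KAT1, FAMA and HT1 had log2 changes of -0.23, 0.27 and 0.05 and were not called. The 5 phloem and xylem markers summed to 537 to 655 in WT leaves and 692 to 832 in pdx1.3 leaves, with none called in limma (smallest adjusted p = 0.114). The 2 measured mesophyll markers summed to 6590 to 8097 and 6655 to 7026, with none called. In roots the 4 measured root markers summed to 1980 to 3349 in WT and 1968 to 2435 in pdx1.3. Of the 4, 1 was called, beside 0.809% of all probe sets called in roots. This was IRT1, which was lower (log2 change -0.95, adjusted p = 0.0257). Its call was kept in 8 of the 12 fits without 1 array (adjusted p = 0.144 without pdx1.3 root array 1). In leaves the root markers summed to 24.5 to 39.2, and in roots the guard cell markers summed to 10.8 to 22.2 with KAT1, FAMA and HT1 absent. The part of these markers in the changes of the ABA genes was not tested.

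Other genes of the ABA pathway were taken as 5 lists of 46 genes, of which 41 had a probe set of their own. In leaves 8 of the 41 were called, 5 higher and 3 lower, beside 4.7% and 2.51% of all probe sets. In roots none of the 41 was called by limma, beside 0.809% of all probe sets. At an unadjusted p under 0.05 in limma there were 4 of the 41, beside 1559 of all 22746 probe sets. Among 7 measured genes of other synthesis steps the median log2 change in leaves was 0.05, and NPQ1, the violaxanthin de-epoxidase that works against ABA1, was the 1 that rose. NPQ1 gave 204, 244 and 220 in WT leaves and 366, 321 and 296 in pdx1.3 leaves, and the groups did not overlap (log2 change 0.52, adjusted p = 0.0341). Its call was lost without WT leaf array 1 or 3 and without each pdx1.3 leaf array, with a highest adjusted p of 0.115, and also with a constant of 1 (adjusted p = 0.112), centred arrays, leaf arrays alone, the replicate block or the actin covariate. Its leaf samples exceeded its root samples in both genotypes, as those of ABA1 did.

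Among 13 genes of carotenoid synthesis and cleavage the median log2 change in leaves was 0.14. Of these 13 genes 1 was called in leaves, beside 7.22% of all probe sets. The 1 that rose was NCED4 (AT4G19170), a carotenoid cleavage dioxygenase of plastids also known as CCD4, which is named with the NCED genes but is known for carotenoid turnover. Its signals were 438, 490 and 513 in WT leaves and 1972, 1354 and 1511 in pdx1.3 leaves. Every pdx1.3 leaf sample was far above the WT leaf samples, by 1.70 on the log2 scale (SE 0.16, adjusted p = 9.67e-05). All 6 root arrays called NCED4 absent, and its leaf change exceeded its root change by 1.64 on the log2 scale (adjusted p = 0.00372, or 0.295 with a constant of 1).

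Of the 4 genes of ABA conjugation, the pair of glucosidases known to free ABA from its glucose ester rose in leaves. These were 2 of 4, beside 4.7% of all probe sets called higher. BGLU18, of the endoplasmic reticulum, gave 145, 162 and 295 in WT leaves and 900, 747 and 782 in pdx1.3 leaves. Its groups were far apart, and the log2 change was 1.99 (SE 0.23, adjusted p = 0.000341), with a leaf change above the root change by 1.80 (adjusted p = 0.0153, or 0.101 with a constant of 1). BGLU33, of the vacuole, rose with a log2 change of 0.57 (adjusted p = 0.0320). That call was lost without WT leaf array 3, pdx1.3 leaf array 1, WT root array 2 or pdx1.3 root array 1, with a highest adjusted p of 0.107, and also with quantile normalization, a constant of 1 (adjusted p = 0.127), leaf arrays alone (adjusted p = 0.168) or the actin covariate. UGT71C5, which attaches the glucose, had a log2 change of -0.62 and was not called (adjusted p = 0.0777).

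Among 7 transport genes ABCG25, an ABA exporter, was the 1 called in leaves, beside 7.22% of all probe sets. It was absent in all WT leaf samples (25.5, 19.3 and 21.9) and lay at 51.7, 39.1 and 33.5 in pdx1.3 leaves. The groups did not overlap, and by the point estimate it was at least 1.49-fold higher in pdx1.3 leaves (means 41.4 and 22.2, adjusted p = 0.0349). Its call was lost without WT leaf array 2 or 3, pdx1.3 leaf array 1 or 2, WT root array 2 or pdx1.3 root array 1, with a highest adjusted p of 0.118, and also with a constant of 64 (adjusted p = 0.0581) or leaf arrays alone (adjusted p = 0.124).

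ABA receptors of the PYR/PYL family, which bind the hormone and then inhibit protein phosphatases, fell in 3 of 10 measured members in leaves, and none rose, beside 2.51% of all probe sets called lower and 4.7% called higher. The median log2 change of the 10 was -0.39. PYL4 gave 1151, 1177 and 1205 in WT leaves and 236, 226 and 273 in pdx1.3 leaves (log2 change -2.20, SE 0.16, adjusted p = 2.11e-05). PYL5 went from 661, 505 and 610 to 121, 79.5 and 78.6 (log2 change -2.49, SE 0.22, adjusted p = 8.43e-05), and PYL6 from 154, 90.7 and 77.9 to 11.5, 19.8 and 19.4 (log2 change -1.87, SE 0.33, adjusted p = 0.00476). In these 3 receptors no pdx1.3 leaf sample reached a WT leaf sample, and each stayed called without any 1 of the 12 arrays. The leaf change was more negative than the root change by 2.02 for PYL4 (interaction log2 -2.02, adjusted p = 0.00126) and by 2.20 for PYL5 (interaction log2 -2.20, adjusted p = 0.00495). For PYL6 that difference was not called (adjusted p = 0.496). Root signals of PYL6 were 279, 122 and 83.7 in WT and 53.0, 69.2 and 65.1 in pdx1.3. These groups did not overlap, which held for 11.1% of all probe sets in roots. Its root log2 change of -1.03 was the lowest of the 10 receptors and was not called.

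**Figure D5:**
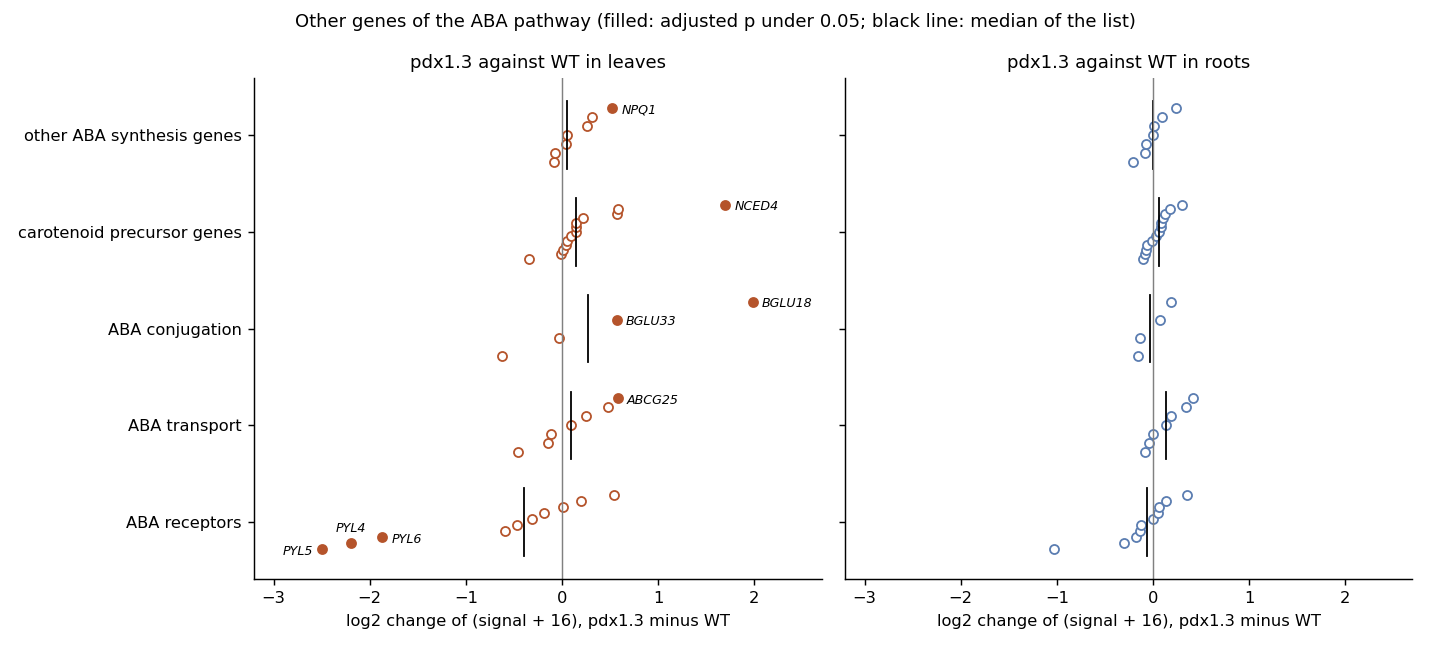
Log2 change of (signal + 16) in pdx1.3 against WT for the 41 measured genes of 5 ABA lists, in leaves and in roots; filled points had an adjusted p under 0.05 and black lines are list medians. In leaves PYL4, PYL5 and PYL6 lie at -1.87 or below and NCED4 and BGLU18 at 1.70 and 1.99, and no point is filled in roots.

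For each member called in leaves or roots, the 3 genes whose log2 signals correlated most closely with it over the 12 arrays were looked up among 16596 probe sets. These correlations describe arrays that share organ and genotype, so that a gene with the same order of groups scores high. A candidate needed a present call on at least 3 arrays, which 1 group alone can supply. NCED3 was followed most closely by HSFA6A, a heat shock factor (r = 0.985), RD26, a NAC transcription factor known to be induced by ABA and drought (r = 0.983), and AT5G50360 (r = 0.977). RD26 had mean signals of 186 in WT leaves, 745 in pdx1.3 leaves, 111 in WT roots and 118 in pdx1.3 roots. In the same order of groups HSFA6A had means of 5.76, 53.8, 0.854 and 0.763, and AT5G50360 had means of 6.24, 40.0, 2.47 and 3.36. These 2 were, like NCED3, dim outside pdx1.3 leaves, so that their r mostly restates that group against the others. CYP707A1 was followed by AT3G11580, AT5G57150 and NF-YA2 (each at r = 0.988), and NF-YA2 had means of 40.7, 51.8, 116 and 214 in the same order of groups. ABA2 was followed by UMAMIT11 and AT2G21560 (each at r = 0.977) and by AT4G17350 (r = 0.971).

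CYP707A2 was followed by SKP2A (r = 0.994), CSLG3 and AT3G19620 (each at r = 0.991), and CYP707A4 by AT1G68570 (r = 0.985), AT2G46380 (r = 0.984) and AT3G09160 (r = 0.983). SKP2A, an F-box protein, had mean signals of 145 in WT leaves, 304 in pdx1.3 leaves, 57.1 in WT roots and 60.6 in pdx1.3 roots. No gene was among the 3 closest of more than 1 member.

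In the authors' deposited table the signed fold of means for NCED3 was 9.42 in leaves, with an unadjusted p of 0.00219, and 1.18 in roots. For CYP707A2 in leaves the authors' deposited table gives a fold of means of 2.60 and an increase in 9 of 9 pairs, and for CYP707A1 in roots a fold of 2.07 and an increase in 8 of 9 pairs. For CYP707A1 and CYP707A4 in leaves the authors' deposited table gives folds of 2.41 and 2.55, each with an increase in 6 of 9 pairs, and for ABA2 in leaves 1.49 with an increase in 3 of 9 pairs. These folds are not on the log2(signal + 16) scale used above, and they are not ratios of the arithmetic mean signals given here. For NCED3 and AAO3 in leaves they match ratios of the geometric means of the signals. For AAO3 in leaves the fold is 1.32, while the arithmetic mean went from 76.9 in WT to 74.3 in pdx1.3.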

How the data were processed

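Per the submitters' processing notes, MAS5 and GCOS (versions not stated) gave the deposited values, a linear signal intensity per probe set that the authors scaled to a common trimmed mean, as the values show. A call (present, marginal or absent) goes with each. The authors' deposited comparison table adds signed fold changes (ratios of the mutant and WT signals), unadjusted p-values, and counts of increase and decrease over 9 array pairs per organ. Intensities were deposited in a further table, which differed by at most 0.257 for the 10 genes and served as an alternative.

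Of 22810 probe sets, 64 controls were left out and 22746 tested. Probe sets were assigned to loci by the deposited annotation (21526 name 1 locus). Of the 21363 loci so named, 21098 were found in a RefSeq gene table of TAIR10.1, whose symbols were used where given. No coordinates are given, because the files name no genome build.

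Group means of log2(signal + 16) over all 12 arrays were fitted with limma 3.58.1 (R 4.3.3), with a variance trend and Benjamini-Hochberg adjustment over all 22746 probe sets; a call is an adjusted p under 0.05. The script was tested on simulated data. Contrasts were pdx1.3 minus WT in each organ, their difference, and leaves minus roots in each genotype. SE and 95% intervals are those of the fit, SD that of 3 signals, and 3 arrays a group limit the precision. A fold against a group absent on all arrays is a lower bound of the point estimate. The group is set, per array, at the higher of its own signal and the lowest signal of any present probe set. The spread between arrays is not part of that bound.

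Alternatives were quantile normalization, median centring, constants of 1 and 64, a filter on present calls, the other deposited table, fits of 1 organ or genotype, other variance models, a replicate block, the actin ratio as covariate, stricter thresholds, the mean over probe sets and leaving out each array. Named genes are the 10 members, PDX1.3, list genes called in leaves, roots or the interaction, and the closest 3 genes by correlation among probe sets present on at least 3 arrays. UGT71C5 and the marker genes were named after their values were seen. Members and lists were chosen with earlier results of these data known.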

Additional observations from a re-analysis of the deposited data

Results flagged for a closer look

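The change between pdx1.3 and WT differed between leaves and roots, by the test of that difference in limma, for 2 of the 10 ABA genes. The leaf change minus the root change was 2.06 on the log2 scale for NCED3 and 0.56 for CYP707A4. Among the other ABA genes it was 1.64 for NCED4, 1.80 for BGLU18, -2.02 for PYL4 and -2.20 for PYL5. For the knocked-out gene PDX1.3 it was -2.43 (adjusted p = 0.000665), with signals in WT that were higher in leaves than in roots. In roots CYP707A4 and NCED4 were called absent on all 6 arrays and NCED3 on 3 of 6, so that their root changes are those of signals near background.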

How the results depend on the processing

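With 3 arrays a group and 4 of the 10 genes present on all 12 arrays, differences of dim genes depend on the constant added before log2. The leaf count of 5 became 3 with arrays centred on the median, with leaf arrays alone and at an adjusted p under 0.01. The 3 kept there were NCED3, CYP707A2 and CYP707A4. With a constant of 1 the leaf count was also 3, but the genes were NCED3, ABA2 and CYP707A1. With a 2-fold minimum it was 1, NCED3. Over the fits that left out 1 array the leaf count ran from 3 to 5, with 3 without pdx1.3 leaf array 1 or 3. The root count of 1 became 0 with a constant of 1, with root arrays alone, with the actin covariate, at an adjusted p under 0.01 and with a 2-fold minimum, and ran from 0 to 1 without 1 array. The count of 2 for the difference between organs became 1 with centred arrays, at an adjusted p under 0.01 and with a 2-fold minimum, and 0 with a constant of 1, where limma gave NCED3 an adjusted p of 0.0579; it ran from 1 to 3 without 1 array, with 1 without WT root array 2 or pdx1.3 root array 1 or 2 and 3 without pdx1.3 root array 3. The organ count in WT was 3 with a 2-fold minimum and 6 to 7 without 1 array, and that in pdx1.3 was 5 and 7 to 8. The cause was not tested beyond what the settings themselves change. Leaving out both leaf arrays numbered 1, a setting chosen after seeing the data, gave 4 genes in leaves. ABA2 and CYP707A1 were lost there in limma (adjusted p = 0.0834 and 0.0682) and AAO3 was gained (adjusted p = 0.00522), so that 3 of the 5 were kept.

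With the replicate number as a block, 4 genes were called in leaves (CYP707A1 at an adjusted p of 0.0530), 1 in roots, 2 for the difference, 6 between organs in WT and 7 in pdx1.3. Whether the numbers pair the samples cannot be decided from correlations of 3 same-numbered array pairs per comparison. Deviations of same-numbered WT and pdx1.3 arrays correlated at -0.089 to -0.007 in leaves and at -0.211 to -0.045 in roots. Same-numbered leaf and root arrays correlated at -0.096 to -0.072 in WT and at -0.173 to 0.348 in pdx1.3, where different numbers gave -0.370 to 0.309.

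Directions that changed belonged to uncalled differences. With centred arrays the log2 values were -0.0032 for NCED3 in roots, -0.045 for NCED9 in leaves, 0.0022 and 0.067 for NCED9 between organs in WT and pdx1.3, and 0.15 for CYP707A3 between WT organs, which was 0.0098 with a constant of 64, 0.031 with the actin covariate and 0.42 without both leaf arrays numbered 1. Without both, NCED9 was at -0.0030 and CYP707A3 at -0.14 in leaves. AAO3 in roots was 0.064 with the actin covariate, and a constant of 1 gave 0.012 for CYP707A4 in roots and 0.15 for the difference of CYP707A1. Without 1 array the ranges in roots were -0.12 to 0.11 for NCED3, -0.0015 to 0.041 for NCED5, -0.17 to 0.0039 for NCED9, -0.10 to 0.20 for ABA1, -0.064 to 0.021 for ABA2, -0.17 to 0.022 for AAO3, -0.050 to 0.049 for CYP707A4, -0.022 to 0.17 for NCED4 and -0.36 to 0.0050 for PYL4. They were -0.14 to 0.91 for AAO3 and -0.34 to 0.41 for CYP707A3 in leaves, -0.051 to 1.00 for the difference of AAO3, -0.34 to 0.42 for CYP707A3 between WT organs and -0.098 to 0.025 for NCED9 between pdx1.3 organs.

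Over all probe sets, 1642 were called in leaves and 516 with leaf arrays alone (1051 without pdx1.3 leaf array 2). In roots 184 were called, 83 with a constant of 1 and 61 with root arrays alone. Without 1 array the root count ran from 75 (without pdx1.3 root array 1) to 384 (without pdx1.3 root array 3). For the difference 425 were called and 248 with a constant of 1 (137 to 554 without 1 array).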
